A study of Rattus norvegicus with 12 samples.

Results

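Genes of the B-cell receptor and of B-lineage identity were followed across the cells, nuclei and tissue spots of healthy rat liver: Ighm, Cd79a, Cd79b, Ms4a1, Fcmr, Ebf1, Pax5, Tnfrsf13c and Fcrla. They were chosen by name, and they are 9 of the 32883 genes in the deposited gene list. Male Dark Agouti (DA) and Lewis (LEW) rats, 8 to 10 weeks old by the series text (the study's methods give another age), provided 2 total liver homogenates (TLH) per strain by collagenase digestion, 1 immune-enriched cell suspension per strain with further washing and red blood cell depletion, and 2 snRNA-seq libraries per strain. Cells were profiled by scRNA-seq with 10x 3 prime version 2 chemistry for TLH and version 3 for the immune-enriched cells and the nuclei, and 2 Visium sections came from Wistar liver. All rats were labelled healthy, with no treatment or engineered allele stated in the labels, and each comparison of strains is between inbred rats of 1 sex.

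Mature B cells carry IgM as a surface receptor whose heavy chain is encoded by Ighm and which signals through the paired chains CD79A and CD79B. When such a cell becomes a plasma cell it switches the same heavy chain gene to secretion, raises its transcripts steeply, makes the joining chain (Jchain) and the chaperone Mzb1, and loses the B-lineage programme that Pax5 and Ebf1 maintain. Plasmacytoid dendritic cells (pDC), which are the main producers of type I interferon, share some transcription factors with B cells, and the sinusoids of the liver hold small numbers of both.

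The files held 61441846 to 92484173 UMIs in a TLH library, 48255870 and 60005133 in the immune-enriched libraries, and 8039397 to 15186970 in a nuclei library. After filtering, 3844 to 7112 cells, 1163 and 2677 cells, and 2205 to 5262 nuclei remained per library, and 8 to 24 barcodes were shared by any pair of nuclei libraries (0.137 to 0.367%). The cells were clustered with the members and the immunoglobulin loci left out, so that no member chose the class in which it is reported. B-like cells were recognised by Cr2, Fcer2 and Pou2af1, and pDC-like cells by Siglech, Ptcra, Irf8 and Tcf4. Both formed clusters of their own in the immune-enriched cells, with 59 DA and 49 LEW B-like cells and 42 DA and 16 LEW pDC-like cells. In TLH a pDC-like cluster but no B-like cluster was found, and the nuclei had neither. Scrublet marked 3 (0.258%) and 15 (0.560%) immune-enriched cells as doublets, but only 0.0183 to 0.0453% of TLH cells and 0.0950% of the nuclei of LEW replicate 1. All these rates lay far below the expected share of 0.06 that was set. Doublets are therefore taken to remain in every library, and how well the calls worked was not tested.

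Levels are given as CPM, that is the UMIs of a gene per 1000000 UMIs of all genes in the same class and library. There was 1 immune-enriched library per strain, so no test was made across these classes, and the exact 95% intervals cover counting error only. The hepatocyte-like cells serve as the measure of free RNA. Their median depth was 40287 UMIs in DA and 37482 in LEW, against 2780 and 2762 in B-like and 7300 and 7506 in pDC-like cells.

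Of the receptor genes, Ighm was read in every B-like cell and in nearly every pDC-like cell. In B-like cells Ighm stood at 4226 CPM in DA (95% interval 3937 to 4530) and 12915 CPM in LEW (12353 to 13496). In pDC-like cells it stood at 1202 CPM in DA (1082 to 1332) and 1047 CPM in LEW (873 to 1245). The LEW value of the B-like cells rested on a single cell with 1472 Ighm UMIs, and it was 3614 CPM (3308 to 3941) without that cell, while DA without its highest cell gave 4033 CPM (3743 to 4340). The other cells were alike in both libraries, with a median of 10 Ighm UMIs per B-like cell in DA and in LEW and of 8 and 7 per pDC-like cell. At least 1 Ighm UMI was found in 97.6% of DA and 100% of LEW pDC-like cells, compared with 5.93% and 2.10% of the far deeper hepatocyte-like cells. T-like cells had a UMI in 33.3% (DA) and 5.06% (LEW), NK-like cells in 14.96% and 3.77%, and cDC-like cells in 47.7% and 14.3%. For all 3 classes the DA share was the larger one, and the DA library also held the barcode with the most Ighm UMIs, 1762. The part of free RNA in these shares was not tested. In DA the T-like, NK-like and cDC-like cells held 51, 22 and 51 Ighm UMIs. Kupffer-like cells held 0 Ighm UMIs in DA and 2 in LEW, and Lyz2 myeloid-like cells held 1 in each library.

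Cd79b, the signalling chain that IgM needs at the surface, separated B-like from pDC-like cells. It reached 2174 CPM (1969 to 2395) in DA and 2044 CPM (1824 to 2283) in LEW B-like cells, where 96.6% and 100% of cells had a UMI. No Cd79b UMI was counted in 42 DA pDC-like cells, which allows up to 7.14% of cells with a UMI, nor in 16 LEW pDC-like cells, which allows up to 18.8% of cells with a UMI. Against 3 counts in the pDC-like sum of each library, Cd79b was at least 220-fold higher in the DA and at least 82.7-fold higher in the LEW B-like cells. T-like, NK-like and cDC-like cells also held no Cd79b UMI, and Lyz2 myeloid-like cells held 2 in DA and 7 in LEW. Hepatocyte-like cells had Cd79b in 0% (DA) and 0.466% (LEW) of cells. Cd79a, the partner chain, could not be followed, because its row, listed under the older symbol Cd79al, held 1 UMI in the kept cells and nuclei of all libraries; that UMI lay in a LEW B-like cell.

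**Figure D1:**
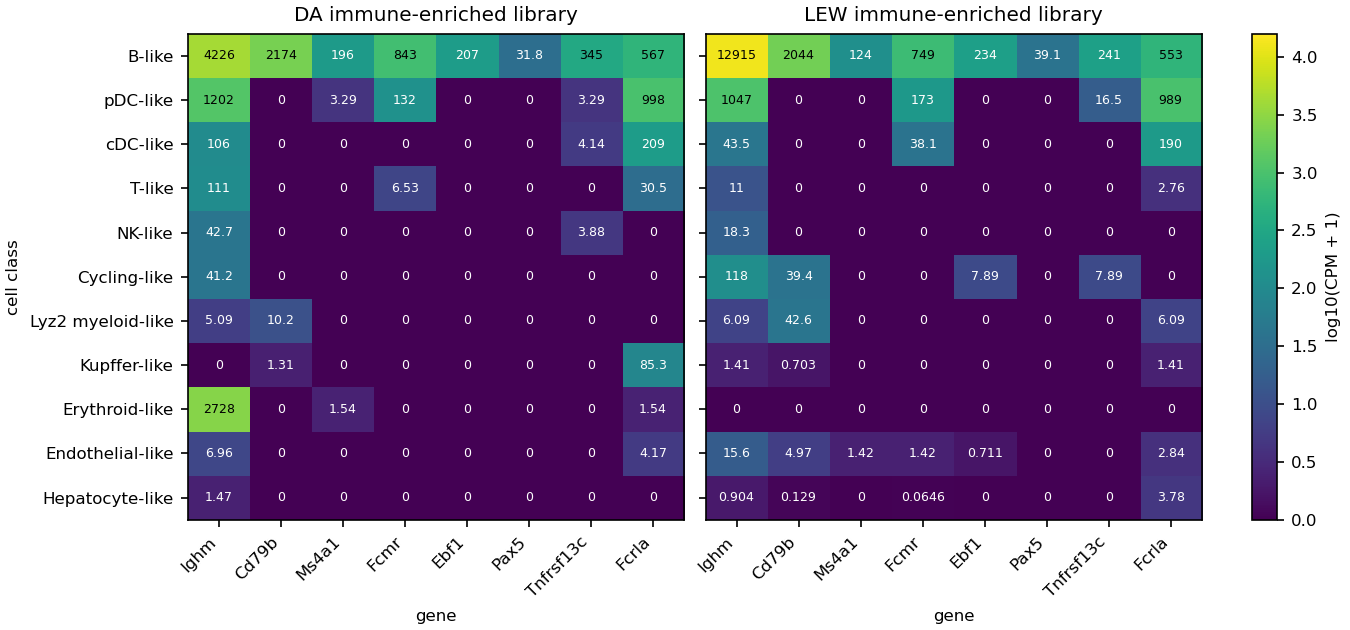
Level of 8 members in 11 cell classes of the DA and LEW immune-enriched libraries, with classes as rows, genes as columns, 1 panel per library and the CPM printed in each field over a log10(CPM + 1) colour scale. Cd79b, Ms4a1, Ebf1, Pax5 and Tnfrsf13c are highest in the B-like row, Fcrla is highest in the pDC-like row (998 and 989 CPM) and extends to the cDC-like row, and the 2728 CPM of Ighm in the DA erythroid-like row come mostly from the barcode with 1762 Ighm UMIs.

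The surface genes Ms4a1 and Tnfrsf13c followed Cd79b. Ms4a1, which encodes CD20, stood at 196 CPM (138 to 270) in DA and 124 CPM (74.5 to 193) in LEW B-like cells, with a UMI in 39.0% and 24.5% of cells. A single Ms4a1 UMI was seen in the DA pDC-like cells and none in LEW. Tnfrsf13c, the receptor for the survival factor BAFF, stood at 345 CPM (266 to 439) in DA and 241 CPM (170 to 332) in LEW B-like cells, and 55.9% and 44.9% of these cells had it. pDC-like cells held 1 Tnfrsf13c UMI in DA and 2 in LEW. The ratio of B-like to pDC-like CPM was then 105 (18.1 to 4195) in DA and 14.6 (3.77 to 125) in LEW, on so few pDC-like UMIs that only its direction is firm. In these libraries neither gene was counted in any hepatocyte-like, T-like, Kupffer-like or Lyz2 myeloid-like cell, but DA NK-like and DA cDC-like cells held 2 Tnfrsf13c UMIs each.

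The transcription factors were the sparsest members. Ebf1, which with Pax5 commits progenitors to the B lineage, had 39 UMIs in DA (207 CPM, 147 to 283) and 36 in LEW B-like cells (234 CPM, 164 to 324), in 37.3% and 42.9% of cells. Pax5, which keeps B cells committed, had 6 UMIs in each library (31.8 and 39.1 CPM) in 8.47% and 10.2% of cells. Neither factor was counted in pDC-like cells, which makes Ebf1 at least 20.9-fold (DA) and 9.48-fold (LEW) higher in B-like cells; for Pax5 the same floor gives only 3.22-fold and 1.58-fold. Neither was counted in T-like, NK-like, cDC-like, Kupffer-like or Lyz2 myeloid-like cells of either library. Over both libraries the Pax5 UMIs were 12 in B-like and 0 in pDC-like cells.

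Fcmr and Fcrla were the members that pDC-like cells shared with B-like cells besides Ighm. Fcmr, the Fc receptor for IgM, stood at 843 CPM (717 to 985) in DA and 749 CPM (618 to 899) in LEW B-like cells and at 132 CPM (94.1 to 179) and 173 CPM (107 to 265) in pDC-like cells. It was thus 6.40-fold (4.50 to 9.29) and 4.33-fold (2.70 to 7.25) higher in B-like cells. With both classes called from anchor genes (B cells by UMIs of at least 2 of 10 genes such as Cr2 and Bank1, pDC by Siglech) instead of clusters, the ratio was 3.74 (2.53 to 5.70) in DA and 1.63 (1.01 to 2.74) in LEW. Fcmr was read in 84.7% and 87.8% of B-like and in 59.5% and 81.2% of pDC-like cells, but in 0% and 0.233% of hepatocyte-like cells.

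Fcrla, an intracellular Fc receptor-like protein of B cells that binds immunoglobulin, ran the other way. It stood at 567 CPM (465 to 686) and 553 CPM (442 to 684) in the B-like cells of DA and LEW, and at 998 CPM (889 to 1117) and 989 CPM (820 to 1183) in the pDC-like cells. pDC-like cells therefore exceeded B-like cells 1.76-fold (1.41 to 2.21) in DA and 1.79-fold (1.34 to 2.39) in LEW, and the mean per cell was 7.29 UMIs against 1.78 over both libraries. By anchor genes the ratio of B-like to pDC-like CPM was 0.381 in DA and 0.242 in LEW. Fcrla was read in 97.6% and 100% of pDC-like cells, 78.0% and 81.6% of B-like cells, and 0% and 1.86% of hepatocyte-like cells. cDC-like cells held it at 209 CPM in DA and 190 CPM in LEW, in 52.3% and 38.1% of cells. Elsewhere Fcrla lay in few cells: 7 of 61 DA Kupffer-like cells held 65 UMIs, 31 of them in 1 cell, against 2 UMIs in 103 LEW Kupffer-like cells, and 16 of 859 LEW hepatocyte-like cells held 117. A doublet or free RNA as the source of these UMIs was not tested.

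Reading depth differed between the classes, so the shares were also taken after every cell was thinned to 1000 UMIs. Over both libraries, B-like cells then had Ighm in 96.3%, Cd79b in 85.2%, Fcmr in 44.4% and Fcrla in 39.8% of cells. pDC-like cells had Ighm in 63.8%, Cd79b in 0%, Fcmr in 6.90% and Fcrla in 63.8%. The order of the classes was the same as in CPM for these 4 genes.

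**Figure D2:**
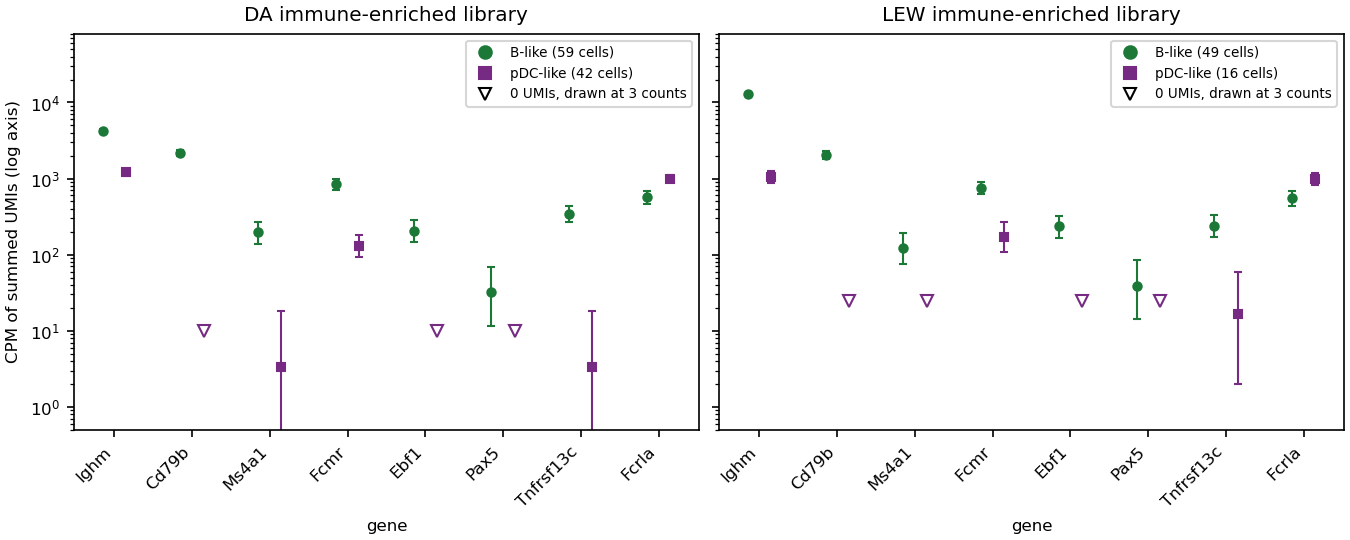
Level of 8 members in B-like and pDC-like cells of the DA and LEW immune-enriched libraries, as CPM on a log axis with exact 95% Poisson intervals; triangles stand for 0 UMIs and are drawn at 3 counts. Fcrla is the gene whose pDC-like points lie above its B-like points (998 and 989 against 567 and 553 CPM), and for Cd79b both pDC-like points are triangles.

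Counted over genes, 7 of the 8 members that could be compared were higher in B-like cells in both libraries, where 21.2% of the 5954 genes with at least 10 UMIs over the pair of classes were. Fcrla was the 1 member higher in pDC-like cells in both, a direction that 48.9% of those genes took. A difference of at least 4-fold in favour of B-like cells in both libraries, with 3 counts for any lower sum, was reached by 5 members (Cd79b, Ms4a1, Fcmr, Ebf1 and Tnfrsf13c) and by 1.01% of genes; at least 4-fold in favour of pDC-like cells was reached by 0 members and 3.54% of genes. With classes from anchor genes (123 B-like and 53 pDC-like cells), 7 members were again higher in B-like cells in both libraries (25.5% of 7113 genes), but only Cd79b was at least 4-fold higher in both (2.28% of genes). The LEW ratios of Ms4a1, Ebf1 and Pax5 against 3 counts were then 2.26, 3.27 and 0.564. For Pax5, with 5 UMIs in LEW B-like and 0 in LEW pDC-like cells, the direction is thus not firm. After thinning, the anchor-called B-like cells had Cd79b in 67.5% and Ighm in 78.0% of cells over both libraries. By clusters these shares were 85.2% and 96.3%. The anchor genes Blk, Bank1 and Cd22 were read in 11.5%, 39.3% and 42.6% of DA and 45.6%, 44.7% and 39.8% of LEW Kupffer-like cells. The call left out cells with a Clec4f UMI, and the part of other cell types in it was not tested. With classes from clusters, Ighm missed the 4-fold mark in DA (3.51-fold, 3.1 to 3.99) and passed it in LEW (12.3-fold, 10.3 to 14.9), where it was 3.45-fold without the cell of 1472 UMIs.

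The members also told the classes apart cell by cell. All 108 B-like cells held at least 3 of the members, and up to 8. Of the 58 pDC-like cells, 39 (67.2%) held at least 3, but none held more than 4, and 36 held exactly 3. Ighm with Cd79b was found in 106 B-like cells and in 0 pDC-like cells, whereas Ighm with Fcrla and without Cd79b was found in 2 B-like and 56 pDC-like cells and also in 21 of 65 cDC-like cells (18 in DA and 3 in LEW). Fcrla and Fcmr occurred together in 74 B-like and 38 pDC-like cells. In the immune-enriched libraries no T-like, NK-like, Kupffer-like or Lyz2 myeloid-like cell had more than 2 members. Of the other classes there, 2 cDC-like, 2 endothelial-like, 1 cycling-like, 1 mesenchymal-like and 4 unnamed cells had 3 or more, up to 6 in an unnamed cell.

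**Figure D3:**
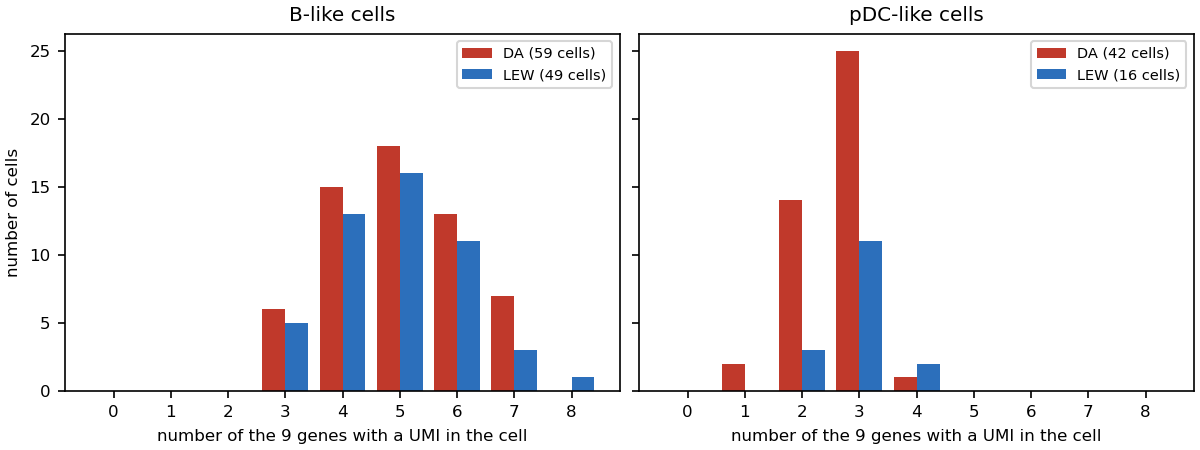
Histograms of the number of members with at least 1 UMI in a cell, for the B-like and the pDC-like cells of the immune-enriched libraries; bars give numbers of cells, DA and LEW side by side. B-like cells run from 3 to 8 members and pDC-like cells reach 4 at most.

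By the same token, most UMIs of the members in leukocytes of the immune-enriched libraries lay in the 108 B-like cells: 96.4% for Cd79b, 98.2% for Ms4a1, 97.4% for Ebf1, 100% for Pax5 (12 of 12 UMIs) and 92.7% for Tnfrsf13c. For Ighm the share was 80.4%, with a further 14.2% in pDC-like cells, and for Fcmr it was 77.8% and 17.3%. By library the Ighm shares were 60.8% and 27.9% in DA and 92.4% and 5.92% in LEW, where 1 B-like cell held 1472 of the UMIs. Over all kept cells, and not leukocytes alone, B-like cells held 45.7% of the Ighm UMIs (20.5% in DA and 89.9% in LEW). Of the Fcrla UMIs in leukocytes 22.7% lay in B-like, 50.1% in pDC-like and 16.1% in cDC-like cells.

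Because Fcmr and Fcrla were read in pDC-like cells while Tnfrsf13c was hardly read there, the 250 bases before the start of these 3 genes are shown, from RefSeq on the build GRCr8; such sequence was given for 5 of the 9 members. The files themselves were counted on another build, and no coordinates were carried over. Capitals mark GAGGAA, the core bound by the factors PU.1 and Spi-B, on either strand (TTCCTC on the strand printed).
Fcmr: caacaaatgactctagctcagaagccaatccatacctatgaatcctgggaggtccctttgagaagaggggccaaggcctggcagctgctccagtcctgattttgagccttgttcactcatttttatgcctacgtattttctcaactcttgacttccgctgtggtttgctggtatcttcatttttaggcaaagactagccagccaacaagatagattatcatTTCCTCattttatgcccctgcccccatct
Fcrla: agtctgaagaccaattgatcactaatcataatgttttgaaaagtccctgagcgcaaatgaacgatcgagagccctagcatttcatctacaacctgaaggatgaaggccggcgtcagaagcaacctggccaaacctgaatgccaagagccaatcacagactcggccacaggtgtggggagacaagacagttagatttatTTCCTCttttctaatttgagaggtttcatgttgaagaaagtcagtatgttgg
Tnfrsf13c: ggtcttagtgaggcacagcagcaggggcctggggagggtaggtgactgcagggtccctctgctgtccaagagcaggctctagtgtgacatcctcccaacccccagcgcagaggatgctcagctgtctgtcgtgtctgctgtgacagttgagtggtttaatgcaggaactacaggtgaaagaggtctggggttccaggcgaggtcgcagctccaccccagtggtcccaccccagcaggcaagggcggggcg
The Fcmr sequence is chr13:44889430-44889679 on the plus strand, with the match 29 bases before the start. That of Fcrla is chr13:85702827-85703076 on the minus strand, with the match 52 bases before the start. Tnfrsf13c, at chr7:115618648-115618897 on the minus strand, has none, nor has Ebf1, while Cd79a has 1 at 141 bases. GAGGAA is common, standing in 23.3% of all 33469 promoters of this length, so the match is a description and no site. The octamer ATGCAAAT (1.56% of promoters) was in none of the 5 and the E-box CANNTG (65.5%) in all 5; both strands were searched, and no match shown in capitals overlapped another motif.

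Other genes of the receptor pathway were counted in both classes. Of all 5954 genes with at least 10 UMIs over the pair of classes, 21.2% were higher in B-like and 48.9% in pDC-like cells in both libraries. Of 20 genes of receptor signalling in the gene list, 8 were higher in B-like and 8 in pDC-like cells in both libraries, 3 differed in direction and 1 had under 10 UMIs; of the 8 higher in B-like cells, 5 were on the list of B-cell markers used to name the class, among them Cr2, Bank1 and Blk. The adaptor Blnk, which links the receptor to its kinases, stood at 159 and 117 CPM in B-like and 659 and 684 CPM in pDC-like cells of DA and LEW, and the phosphatase Ptpn6 at 286 and 143 CPM in B-like and 712 and 626 CPM in pDC-like cells. Malt1, which carries the signal to NF-kappaB, stood at 138 CPM in DA B-like and 42.8 CPM in DA pDC-like cells, and at 84.6 and 74.2 CPM in LEW. Of 15 B-lineage regulators 9 were higher in B-like and 5 in pDC-like cells, but Pou2af1, Spib, Irf8, Tcf4 and Bcl11a in that list had named the classes. In the BAFF system, Tnfrsf13b (58.3 against 6.59 CPM in DA, 52.1 against 8.24 in LEW) and Cd40 (90.1 against 3.29 CPM in DA, 111 against 8.24 in LEW) were higher in B-like cells. Tnfrsf17 had 14 UMIs in LEW B-like cells, all in a single cell (2.04% of them), and 0 in DA. Whether that is the LEW cell of 1472 Ighm UMIs was not examined. The ligand genes Tnfsf13b and Tnfsf13 had under 10 UMIs over the pair of classes. Kupffer-like cells held Tnfsf13b at 43.3 CPM in DA and 49.2 CPM in LEW, and Tnfsf13 at 106 and 101 CPM. Of 12 plasma cell genes, 4 were higher in pDC-like and 2 in B-like cells, 3 differed in direction and 3 had under 10 UMIs. Higher in pDC-like cells were Txndc5 (15.9 against 240 CPM in DA, 143 against 247 in LEW) and Sec11c (31.8 against 208 CPM in DA, 39.1 against 165 in LEW), which serve the folding and processing of secreted proteins. Mzb1 was higher in B-like cells (106 against 16.5 CPM in DA, 143 against 8.24 in LEW). The LEW cell of 1472 Ighm UMIs held 10 of the 22 Mzb1, 13 of the 22 Txndc5 and 16 of the 17 Jchain UMIs of LEW B-like cells. Without it the LEW B-like levels of Mzb1 and Txndc5 were 84.7 and 63.5 CPM. All 6 precursor genes (Vpreb1, Vpreb3, Igll1, Rag1, Rag2 and Dntt) had under 10 UMIs over the pair of classes, as had the immunoglobulin rows Igh-6 and Ighg1.

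Over 20 sums of cells by class and library, the genes most like the mean of the members in log2(CPM + 10) included B3gnt5 (Pearson r = 0.96), Cr2 (0.95), Fcer2 (0.94) and Pou2af1 (0.94). The members correlated with their own mean at 0.78 for Fcrla, 0.87 for Ighm and 0.91 to 0.96 for the 6 others apart from Cd79a. These points share libraries and depth, and Cr2, Fcer2 and Pou2af1 are markers by which the B-like class was named.

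In TLH, with shallower cells, the pDC-like pattern was seen again in 4 rats. The pDC-like clusters of DA replicates 1 and 2 and LEW replicates 1 and 2 held 60, 42, 19 and 15 cells. Ighm stood at 303, 414, 248 and 565 CPM in them and Fcrla at 199, 199, 667 and 294 CPM. Their Cd79b count was 0 in each of the 4, and Fcmr had 2, 9, 2 and 5 UMIs. TLH cells of the hepatocyte-like class (median depth 2278 UMIs) gave 11.2 CPM of Ighm and 1.16 CPM of Fcrla, with an Ighm UMI in 2.07% of cells, against 41.7 to 80.0% of pDC-like cells per rat.

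The B-like pattern had no TLH cluster to itself. Of 148 Cd79b UMIs in all TLH cells, 105 (70.9%) were in a sub-cluster led by Cd74 and the class II genes RT1-Bb, RT1-Da and RT1-Ba, named cDC-like by its markers, which held 78, 76, 46 and 37 cells. By rat the share was 79.4% and 29.5% in DA and 97.8% and 84.0% in LEW. In DA replicate 2, 14 of 44 Cd79b UMIs (31.8%) were in T-like cells instead. The Cd79b level of the sub-cluster was 185 and 67.0 CPM in DA and 369 and 219 CPM in LEW, with a UMI in 23.1%, 11.8%, 58.7% and 27.0% of its cells. Fcmr had 52 of its 99 UMIs there. With 3 or more members were 31 of its 237 cells, 8 pDC-like, 3 T-like, 2 hepatocyte-like and 2 mesenchymal-like TLH cells, 1 cell of another cDC-like sub-cluster and 1 unnamed cell. The 2 other cDC-like sub-clusters held no Cd79b UMI. Fcrla stood at 80.9, 139, 70.3 and 179 CPM in the one of 159 cells, and in the one of 27 cells it had 9 UMIs, 8 of them in DA replicate 2. The cDC-like name of the first sub-cluster therefore covers cells with B-lineage genes, and it is not used as a class here. When B cells were called by anchor genes instead (UMIs of at least 2 of 10 genes such as Cr2 and Bank1, and none of T, NK, pDC or Kupffer genes), 11 TLH leukocytes (and 14 of all kept TLH cells) qualified, 2, 3, 2 and 4 per rat (0.206 to 0.697% of leukocytes). The mean share was 0.252% in DA and 0.511% in LEW. The exact two-sided permutation test gave p = 0.333, the smallest that 2 rats against 2 allow. Blk, among the 10 anchor genes, was read in 11.5% of DA and 45.6% of LEW immune-enriched Kupffer-like cells. The part of cells other than B cells in these shares was not tested.

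Nuclei yielded few UMIs of any member except Ighm. Over the 4 nuclei libraries there were 692 Ighm UMIs, 17 of Cd79b, 16 of Fcrla (8 of them in cDC-like nuclei), 4 of Fcmr, 2 each of Ebf1, Pax5 and Tnfrsf13c, 1 of Ms4a1 and 0 of Cd79a. Their specificity among nuclei could not be judged at this depth.

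Ighm UMIs were concentrated in few barcodes. In all, 23 barcodes held 50 or more Ighm UMIs, a line drawn after the values were seen: 4 immune-enriched cells (81 to 1762 UMIs), 18 TLH cells (50 to 613) and 1 nucleus (448). Those few barcodes held 66.7% of the Ighm UMIs of the immune-enriched cells, 77.5% of those of TLH and 64.7% of those of nuclei. Jchain or Mzb1, both on the list of plasma cell genes, was read in 22 of the 23, and Cd79b in 6. Other genes of that list were read in fewer: Xbp1 in 2 of the 23, Prdm1 in 2 immune-enriched and 3 TLH barcodes, and Derl3 in 0. At 10 to 49 Ighm UMIs, the 82 immune-enriched barcodes had Cd79b in 74.4% and Jchain or Mzb1 in 30.5%, and 19 of them had Siglech. The 3 TLH barcodes and the 3 nuclei of that range each had Cd79b in 33.3% and Jchain or Mzb1 in 66.7%. Jchain was also read in 23.8% of DA and 31.25% of LEW immune-enriched pDC-like cells. Mzb1 was read in 27.1% and 20.4% of the B-like cells, so neither gene marks plasma cells alone here.

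The 3 immune-enriched barcodes with the most Ighm were a DA barcode in the erythroid-like cluster (1762 Ighm, 23 Jchain and 15 Mzb1 UMIs), the LEW B-like cell already named (1472, 16 and 10) and a DA cell of an unnamed cluster (742, 14 and 4). The LEW cell was called a doublet by Scrublet and held 6 Cd79b UMIs, while the DA barcodes held 0. The 4th, a DA B-like cell with 81 Ighm UMIs, had 8 of Cd79b, 6 of Ms4a1, 8 of Tnfrsf13c and no Jchain or Mzb1, so it had the members of a B cell and not the plasma cell genes. Ebf1 and Pax5 were at 0 in all 23 barcodes, Fcmr was read in 1 of them and Fcrla in 2. The 0 counts of Ebf1 and Pax5 lie at the floor and show no loss of these genes. All kept TLH cells together held only 17 Ebf1 UMIs and 1 Pax5 UMI, and all kept nuclei held 2 of each.

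The nucleus with 448 Ighm UMIs came from LEW replicate 1. Ighm made up 21.9% of its 2045 UMIs, the highest share of the 23, and it had 3 Jchain and 4 Mzb1 UMIs, with Cd79b, Ms4a1 and Cd74 at 0. After it came 3 nuclei with 10 to 49 Ighm UMIs and 6 with 5 to 9, among 12525 kept nuclei. The TLH barcodes were 9 and 3 in DA and 2 and 4 in LEW, all 18 had Jchain or Mzb1, and 4 had Cd79b. Immunoglobulin loci took no part in the clustering. The 23 barcodes fell into many classes: 8 in unnamed clusters, 5 in the TLH sub-cluster led by Cd74, 4 in T-like, 2 each in B-like and Kupffer-like, and 1 each in erythroid-like and endothelial-like. An unnamed locus, AABR07060872.1, was also counted in all 23, with 28813 UMIs in sum, and so was AABR07034739.1, with 567. Both were left out of the clustering with the immunoglobulin loci. AABR07060872.1 was not particular to the 23. It was read in 78 of 82 immune-enriched barcodes with 10 to 49 Ighm UMIs and in 70 of 75 with 5 to 9.

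**Figure D4:**
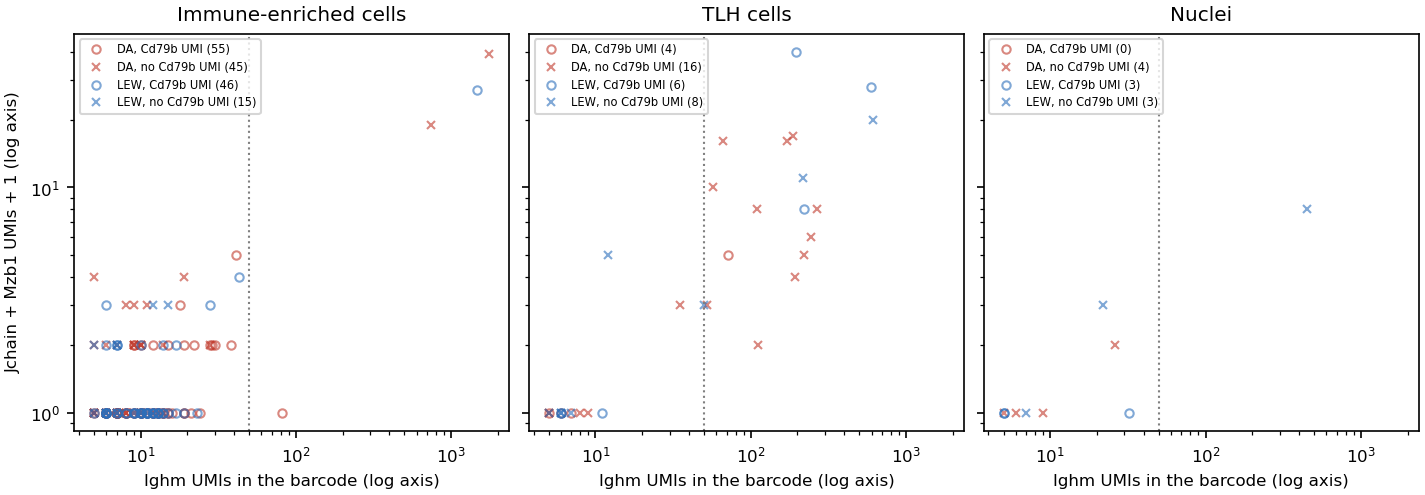
Ighm UMIs per barcode against Jchain + Mzb1 UMIs plus 1 for all barcodes with at least 5 Ighm UMIs in the immune-enriched, TLH and nuclei libraries, on log axes; the marker shows whether Cd79b was read and the dotted line stands at 50 Ighm UMIs. Right of the line lie 23 barcodes, 22 of them with Jchain or Mzb1 and 6 with Cd79b.

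Strain was tested over rats in TLH and nuclei with edgeR's quasi-likelihood test over all genes. In such sums, fewer cells of a type and less RNA per cell cannot be told apart. Among TLH leukocytes 4 members had enough counts to be tested (Ighm, Cd79b, Fcmr and Fcrla) and 0 differed at an adjusted p of 0.05, where 4.09% of 8428 genes did; 2 members, and 19.2% of all genes, had an unadjusted p under 0.05, and DESeq2 called 0.

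Ighm stood at 540 and 121 CPM in the leukocytes of DA replicates 1 and 2 and at 270 and 525 CPM in those of LEW. The strains overlapped (log2 LEW over DA 0.25, SE 1.06, edgeR adjusted p = 0.938), and without the barcodes of 50 or more UMIs the values were 71.3, 44.1, 52.6 and 72.4 CPM. Cd79b stood at 13.5 and 8.50 CPM in DA and 22.4 and 14.4 CPM in LEW. The log2 difference of Cd79b, LEW over DA, was 0.78 (SE 0.33, edgeR adjusted p = 0.235). It was 1.12 without DA replicate 1, 0.41 without DA replicate 2 and 0.44 without LEW replicate 1. Fcmr stood at 6.48 and 5.67 CPM in DA and 9.98 and 16.1 CPM in LEW (log2 1.08, SE 0.37, edgeR adjusted p = 0.142). Its difference was 0.67 without LEW replicate 2. Of the Cd79b UMIs of all kept TLH cells, 79.4% and 61.4% in DA and 100% in both LEW rats lay in leukocyte clusters, and of the Fcmr UMIs 92.9% and 58.1% in DA and 100% and 82.4% in LEW. Fcrla, at 23.4 and 36.2 CPM in DA and 32.4 and 23.0 CPM in LEW, overlapped (log2 -0.14, SE 0.25, edgeR adjusted p = 0.818).

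Over whole TLH libraries, 0 of the 4 members were called by edgeR or by DESeq2, with 0 at an unadjusted p under 0.05, and 5.45% of 11133 genes were called. There the log2 differences, LEW over DA, were 0.63 for Ighm, 0.29 for Cd79b, 0.84 for Fcmr and -0.35 for Fcrla; without LEW replicate 2 that of Fcmr was 0.04. The strains overlapped there for Cd79b (2.64 and 2.22 CPM in DA, 3.14 and 2.61 CPM in LEW) and for Fcmr (1.09 and 1.56 CPM in DA, 1.40 and 3.54 CPM in LEW). Among nuclei Ighm alone could be tested. In whole nuclei libraries it stood at 3.20 and 8.58 CPM in DA and 51.8 and 8.50 CPM in LEW (log2 2.53, SE 1.19, edgeR adjusted p = 0.547), with 1.46% of 11650 genes called and an unadjusted p of 0.109, and DESeq2 called 0 members. In leukocyte nuclei the log2 difference was 5.17 (SE 2.62, edgeR adjusted p = 0.531), with 1.37% of 4512 genes called and an unadjusted p of 0.162; DESeq2 called 0 members, though its unadjusted p was under 0.05. The nucleus with 448 UMIs set both differences: LEW replicate 1 stood at 10.6 CPM without it in whole libraries and kept 1 Ighm UMI among its leukocyte nuclei.

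**Figure D5:**
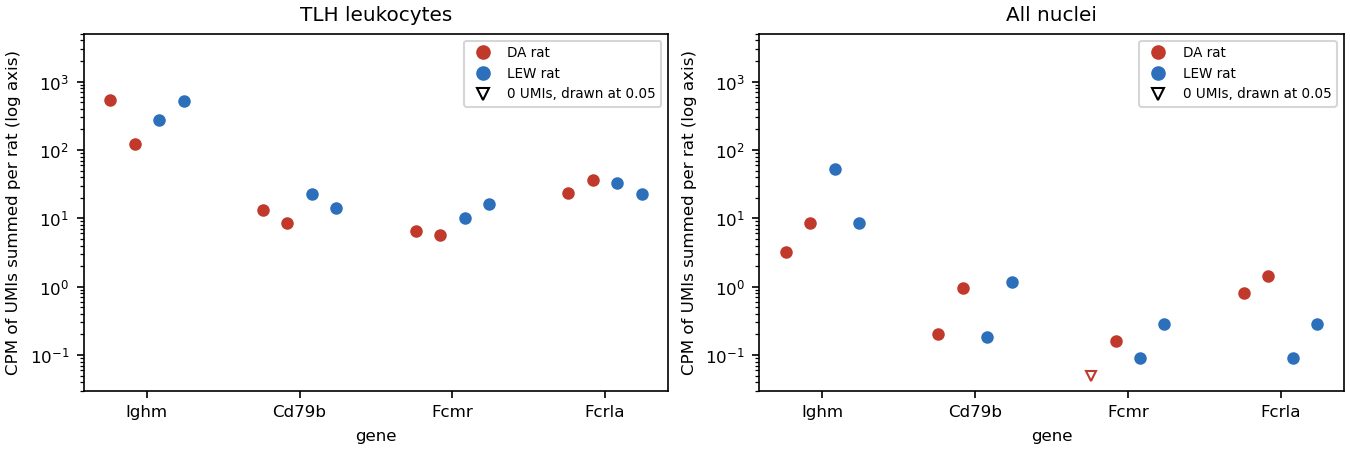
CPM of Ighm, Cd79b, Fcmr and Fcrla per rat in TLH leukocytes and in all nuclei, on a log axis with 1 point per library; a triangle stands for 0 UMIs and is drawn at 0.05 CPM. The DA and LEW points overlap for Ighm and Fcrla in TLH leukocytes (Ighm 121 to 540 CPM in DA and 270 to 525 in LEW), and LEW replicate 1 stands apart for Ighm in nuclei at 51.8 CPM.

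Among 37 related genes tested with the members in TLH leukocytes, 3 passed by edgeR, where 4.09% of all genes did. The receptor kinase Blk stood at 4.48 and 2.52 CPM in DA and 13.0 and 14.4 CPM in LEW (log2 2.00, SE 0.40, adjusted p = 0.0208), and Spi1, which encodes PU.1, was also higher in LEW (log2 0.83, SE 0.19, adjusted p = 0.0338). Over whole TLH libraries neither passed by edgeR (Blk log2 1.73, adjusted p = 0.0524; Spi1 log2 0.80, adjusted p = 0.123), and Blk differed by -0.16 in whole nuclei libraries (adjusted p = 0.922) and Spi1 by 0.10 in leukocyte nuclei (adjusted p = 0.949). Both genes were also read in Kupffer-like cells of the immune-enriched libraries, Blk at 11.8 CPM in DA and 57.7 CPM in LEW and Spi1 at 350 and 397 CPM, while Blk in B-like cells was at 53.0 and 52.1 CPM; the part of Kupffer-like cells in these differences was not tested. Irf8, a marker of pDC-like and cDC-like cells, was lower in LEW (log2 -0.88, SE 0.16, adjusted p = 0.0137), at 114 and 122 CPM in DA and 69.8 and 59.8 CPM in LEW. In immune-enriched Kupffer-like cells Irf8 was at 129 CPM in DA and 168 CPM in LEW, in 70.5% and 86.4% of cells. The pDC-like clusters held 60 and 42 cells in DA and 19 and 15 in LEW; the part of cell numbers in this difference was not tested. Over whole TLH libraries 2 of 41 related genes passed by edgeR, a share near the 5.45% of all genes. Irf8 fell by 0.91 on the log2 scale, LEW over DA (adjusted p = 0.0198). The plasma cell regulator Xbp1 rose by 0.79 (adjusted p = 0.044), but in TLH leukocytes its difference was 0.13 (adjusted p = 0.882). In the immune-enriched libraries B-like cells held 0 Xbp1 UMIs and hepatocyte-like cells stood at 5.03 CPM in DA and 14.6 CPM in LEW. In whole nuclei libraries 1 of 31 related genes passed, where 1.46% of all genes did: Bcl6, a repressor of plasma cell fate (log2 1.58, edgeR adjusted p = 0.0449); in leukocyte nuclei, where 0 of 17 passed, its log2 difference was 1.03 (edgeR adjusted p = 0.327). Immune-enriched hepatocyte-like cells had Bcl6 in 81.4% (DA) and 54.8% (LEW) of cells; the part of hepatocytes in the Xbp1 and Bcl6 differences was not tested.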

How the data were processed

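The authors aligned and counted the reads with Cell Ranger 3.1.0 and the sections with Space Ranger 1.1.0, and deposited UMI counts per gene and barcode, which are the only unit used here. The cut-offs on UMIs and mitochondrial share followed the study's methods, except that LEW TLH barcodes below 2000 UMIs were also left out. The limit was thus 1500 UMIs in DA replicate 1 and 2000 in DA replicate 2 and both LEW libraries of TLH. The members were matched by symbol (Cd79a by its older symbol Cd79al). Cells were clustered per protocol after sctransform 0.4.2 (Seurat 5.3.0) on 3000 variable genes and 15 components with Harmony-type integration written for this work and Louvain clustering at resolution 0.6 (TLH and immune-enriched) or 2.5 (nuclei), without the members and immunoglobulin loci; Ptprc-rich clusters were split again at resolution 1 and named from fixed marker lists where at least 3 markers led. Doublets were called with Scrublet (scanpy 1.11.5) and kept in the main values. UMIs were summed per rat and tested with edgeR 4.0.16 (quasi-likelihood, robust, TMM, filterByExpr, Benjamini-Hochberg threshold 0.05 over all genes) on R 4.3.3, and with DESeq2 1.42.0 as an alternative. In simulated counts with 200 genes changed by 2 on the log2 scale, edgeR recovered 92.5% in TLH leukocytes and whole TLH (8428 and 11133 genes), 93% in leukocyte nuclei (4512) and 88% in whole nuclei libraries (11650). False calls were 7, 9, 7 and 8 in these 4 sets. Counts were drawn with the dispersion of the trend over all genes, and not with each gene's own. The changed genes were drawn at random over all levels, and the change was larger than any TLH difference of a member. These shares therefore do not give the power for the members.

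The members and the lists were chosen with earlier results of these data known. All members are named, and the genes of likeness are the 5 with the highest correlation among genes with at least 50 UMIs, of which 1 is not reported here. Each replicate is a library of its own rat by the labels; those sharing a number share no stated litter or batch. Intervals and limits for 0 counts (3 counts) cover counting error only.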

Additional observations from a re-analysis of the deposited data

Results flagged for a closer look

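Ighm was also counted in data that no comparison above used, the Visium spots of 2 Wistar liver sections. Section 1 held 786 Ighm UMIs in 509 of 2437 spots and section 2 held 872 in 563 of 2404 spots, with up to 43 in a spot of either section. A spot can hold several cells of different types, and there was no control section. The other members were sparse: Cd79b had 8 and 17 UMIs, Fcmr 26 and 27, Fcrla 35 and 42, Tnfrsf13c 3 and 0, Ms4a1 0 and 1, and Cd79a, Ebf1 and Pax5 had 0 in both sections. The share of plasma cells, B cells or free RNA in the Ighm UMIs of spots was not tested.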

How the results depend on the processing

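With classes taken from anchor genes rather than clusters, 11 B-like TLH cells and 2 B-like nuclei were called among leukocytes (14 and 24 over all kept barcodes), against 0 in a cluster, and 1 member, against 5, was at least 4-fold higher in B-like than in pDC-like immune-enriched cells. The count of members called by strain was 0 to 1 with each rat left out in turn, in TLH leukocytes (Cd79b, without DA replicate 1), in leukocyte nuclei (Ighm, without LEW replicate 2) and in whole nuclei libraries (Ighm, without DA replicate 1 and without LEW replicate 2); the lone rat was assumed to vary like the others. With the replicate number as a block, 1 member (Ighm) was called in leukocyte nuclei and no call of a member changed elsewhere; the rats share only a number (correlation of same-numbered deviations -0.0739, -0.163, 0.0738 and 0.107 over 2 pairs each). The block moved the genes called from 62 to 260 in leukocyte nuclei, from 607 to 397 in whole TLH and from 170 to 262 in whole nuclei. With each rat left out in turn, the log2 difference of Ighm ran from -0.49 to 1.73 in TLH leukocytes and from -0.69 to 1.61 in whole TLH, and that of Fcrla from -0.38 to 0.20 and from -0.79 to 0.30. The direction of Ighm turned in TLH leukocytes without DA replicate 2 (-0.49) and without LEW replicate 2 (-0.36) and in whole TLH without LEW replicate 2 (-0.69). That of Fcrla turned in TLH leukocytes without DA replicate 2 (0.20) and without LEW replicate 2 (0.05) and in whole TLH without DA replicate 2 (0.30); the cause was not tested. A LEW limit of 1500 UMIs kept 12124 and 7857 LEW TLH cells, against 5457 and 3844. It called 0 members and 323 genes in TLH leukocytes, and 0 members and 406 genes in whole TLH. Without the filter on low counts 796, 1538, 212 and 622 genes were called in TLH leukocytes, whole TLH, leukocyte nuclei and whole nuclei. The main counts were 345, 607, 62 and 170, and DESeq2 called 191, 573, 33 and 273. Leaving out 1 rat gave 313 to 911, 114 to 749, 9 to 136 and 175 to 362 genes. The Fcmr ratio of B-like to pDC-like cells was 3.74 in DA and 1.63 in LEW by anchor genes, and that of Fcrla 0.381 and 0.242. A smaller share of the anchor-called B-like cells had Cd79b after thinning (67.5% against 85.2% by clusters). The LEW ratio of Ighm was 5.16 by anchor genes and 3.45 without doublets. No comparison of strains was fitted within B-like TLH cells, which formed no cluster. At most 7 UMIs per TLH library of Ms4a1, Ebf1, Pax5 and Tnfrsf13c limit any statement on strain for them.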
